A study of Mus musculus with 6 samples.

Results

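The proteasome genes of the mouse were followed in total RNA of optic nerve. Members were the protein-coding genes of the deposited gene table whose symbol reads Psma, Psmb, Psmc, Psmd, Psme or Psmf followed by a digit, which gave 46 of the 52636 genes. Of these 46 genes, 42 are proteasome genes that passed a filter of a mean of 0.5 FPKM over the 6 libraries, 37 of them constitutive and 5 immunoproteasome genes. The other 4 were Psma8 and Psmb11, forms restricted to testis and thymus, Psme2b, an intronless copy of Psme2, and Psmc3ip, which the symbol rule takes although it encodes a recombination factor and no subunit.

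Values are FPKM, fragments per kilobase of exon scaled to the mapped reads of the library, so levels can be compared between genes per length. The groups were 3 libraries labelled mCherry, after a red fluorescent protein, and 3 labelled hND6, whose treatment label is mutant human ND6T14484C, an allele of a complex I subunit gene of mitochondrial DNA. The labels state that a lentivirus with the mutant gene was injected into the eye, and this text stands beside both groups. The treatment label of the mCherry group reads only mCherry, so the sources used here do not say further what those eyes received. Strain, age, and whether each library was 1 animal are not given either, so the p-values speak only of the spread among these libraries, part of which may be technical.

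The proteasome is the protease that degrades ubiquitin-tagged proteins in the cytosol and nucleus. Its 20S core is a barrel of alpha subunits, which form the gates, and beta subunits, among which the products of Psmb5, Psmb6 and Psmb7 carry the active sites. A regulatory particle of ATPases (Psmc genes) and other subunits (Psmd genes) caps the core, binds ubiquitin chains and unfolds substrates. Interferon-gamma induces the alternative active-site subunits of Psmb8, Psmb9 and Psmb10 and the activator genes Psme1 and Psme2, which together favour peptides for MHC class I. Glia of the central nervous system carry mostly the constitutive form at rest, and immune cells carry much of the inducible one.

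Upstream sequence was available for 39 of the 46 members, from RefSeq's promoter table on GRCm38.p6. The 250 bases before the first listed start were searched on both strands for 4 patterns, and no matches of different patterns overlapped. The patterns were GAAA, any 2 bases and GAAA, the core of the interferon-stimulated response element, TTCNNNGAA, the core of the gamma-activated site, TGACNNNGC, the core of the antioxidant response element to which Nfe2l1 binds, and CCAAT. The stretches shown are those with a match to one of the first 3 patterns in a tested member. Each is written 5′ to 3′ on the gene's strand with the match in capitals, 60 bases long, or 30 where an annotated exon lay close by. The Psmb8 stretch lies before the RefSeq start but within the span of Psmb8 in the files, and an annotated Psmb8 exon overlaps it.
Psmb6, antioxidant type, chr11:70525297-70525356, plus strand: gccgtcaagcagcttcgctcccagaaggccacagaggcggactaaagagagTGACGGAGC
Psmb5, antioxidant type, chr14:54618024-54618053, minus strand: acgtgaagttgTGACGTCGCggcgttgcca
Psmd9, antioxidant type, chr5:123228130-123228189, plus strand: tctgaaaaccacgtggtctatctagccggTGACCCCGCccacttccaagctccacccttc
Psmd12, antioxidant type, chr11:107479278-107479337, plus strand: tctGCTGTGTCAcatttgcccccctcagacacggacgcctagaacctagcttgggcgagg
Psmc6, antioxidant type, chr14:45329574-45329633, plus strand: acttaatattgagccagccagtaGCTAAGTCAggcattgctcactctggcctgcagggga
Psmb3, interferon type, chr11:97703246-97703305, plus strand: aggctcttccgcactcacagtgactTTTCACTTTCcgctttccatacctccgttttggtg
Psmd4, interferon type, chr3:95042660-95042719, minus strand: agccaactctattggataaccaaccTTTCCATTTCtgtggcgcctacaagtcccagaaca
Psmd9, interferon type, chr5:123228006-123228065, plus strand: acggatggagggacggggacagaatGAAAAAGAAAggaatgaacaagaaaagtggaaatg
Psmb8, gamma-activated type, chr17:34198087-34198116, plus strand: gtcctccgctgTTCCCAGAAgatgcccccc
The antioxidant pattern was present in 5 of 31 constitutive and 0 of 5 immunoproteasome windows, against 10.1% of 27025 promoters. The interferon pattern was present in 3 of 31 and 0 of 5, against 3.04%, and the gamma-activated pattern in 0 of 31 and 1 of 5, against 7.18%. CCAAT was present in 12 of 31 and 1 of 5, against 34.5%. These are matches of letters in a short window, and a window without a match says nothing of the factor.

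Reads recovered from the FPKM steps came to between 20253637 and 34758873 per library, and tested subunits had between 104 reads (Psmb9) and 5118 reads (Psme4) in a library. The tissue label was checked on fixed markers: the 8 oligodendrocyte genes summed to between 4629 and 7661 FPKM and the 7 astrocyte genes to between 1478 and 2492 FPKM over the 6 libraries. Libraries mCherry 3 and hND6 1 also held forebrain neuron transcripts, with 8 marker genes summing to 667 and 206 FPKM against at most 63.5 in the others. Library hND6 2 held photoreceptor transcripts, with 7 marker genes at 196 FPKM against at most 6.20 elsewhere. Results below are given without these libraries where that changes them. In bulk tissue, fewer cells of a type and less RNA per cell cannot be told apart.

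Proteasome RNA lay slightly higher in hND6 for most subunits, and no single subunit passed the test. Of the 42 tested subunits 37 had a log2 fold change above 0, where 48.6% of all 16157 tested genes did. The median log2 fold change was 0.20 over the subunits and -0.01 over all tested genes. In limma 0 of the 42 had an adjusted p under 0.05 (smallest 0.179, Psmb6), where 0.0433% of all genes did, and 16 had an unadjusted p under 0.05, where 15.2% of all genes did (15 higher, against 9.11%, and 1 lower, against 6.05%). That count rested on the scaling and on single libraries. It was 5 on the TPM scale (16.9% of all genes), 6 without mCherry 1 (14.0%) and 9 without mCherry 2 (11.99%). It was 10 without hND6 2 (7.91%), 6 without hND6 3 (8.32%) and 14 without hND6 1 (12.9%). It rose to 21 without mCherry 3 (22.2%), 22 with library weights (20.7%) and 22 without mCherry 3 and hND6 1 (20.8%). With voom on the recovered reads 0 passed as well, and 14 had an unadjusted p under 0.05, where 15.2% of all genes did. The groups did not overlap for 19 subunits, where they did not for 22.8% of all genes, that is for 17 higher in hND6 and for 2 lower in hND6, where 12.6% and 10.2% of all genes had such patterns. Scaled to a constant sum (TPM scale), the median of all genes lay at -0.14, and 29 of 42 subunits lay above 0 and 37 above the median of all genes. Without mCherry 3, 1 subunit passed (Psmb6, limma adjusted p = 0.0437), where 0.817% of all genes did, and with hND6 1 left out as well none did.

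Markers of other cells differed between the same libraries. Of the 7 erythroid genes 6 were tested, and all 6 lay higher in hND6 without overlap (median log2 fold change 2.47), with sums between 180 and 468 FPKM in mCherry and between 1365 and 2603 FPKM in hND6. Of the 8 oligodendrocyte genes 7 lay higher, 2 without overlap (median 0.30), with sums between 4629 and 6917 against between 6602 and 7661 FPKM. Of the 7 astrocyte genes 6 lay higher, 4 without overlap (median 0.20), with sums between 1478 and 2011 against between 2058 and 2492 FPKM. Over all tested genes 12.6% lay higher without overlap. No marker of these 3 lists was at 0 in all libraries, and their part in the subunit values was not tested.

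**Figure D1:**
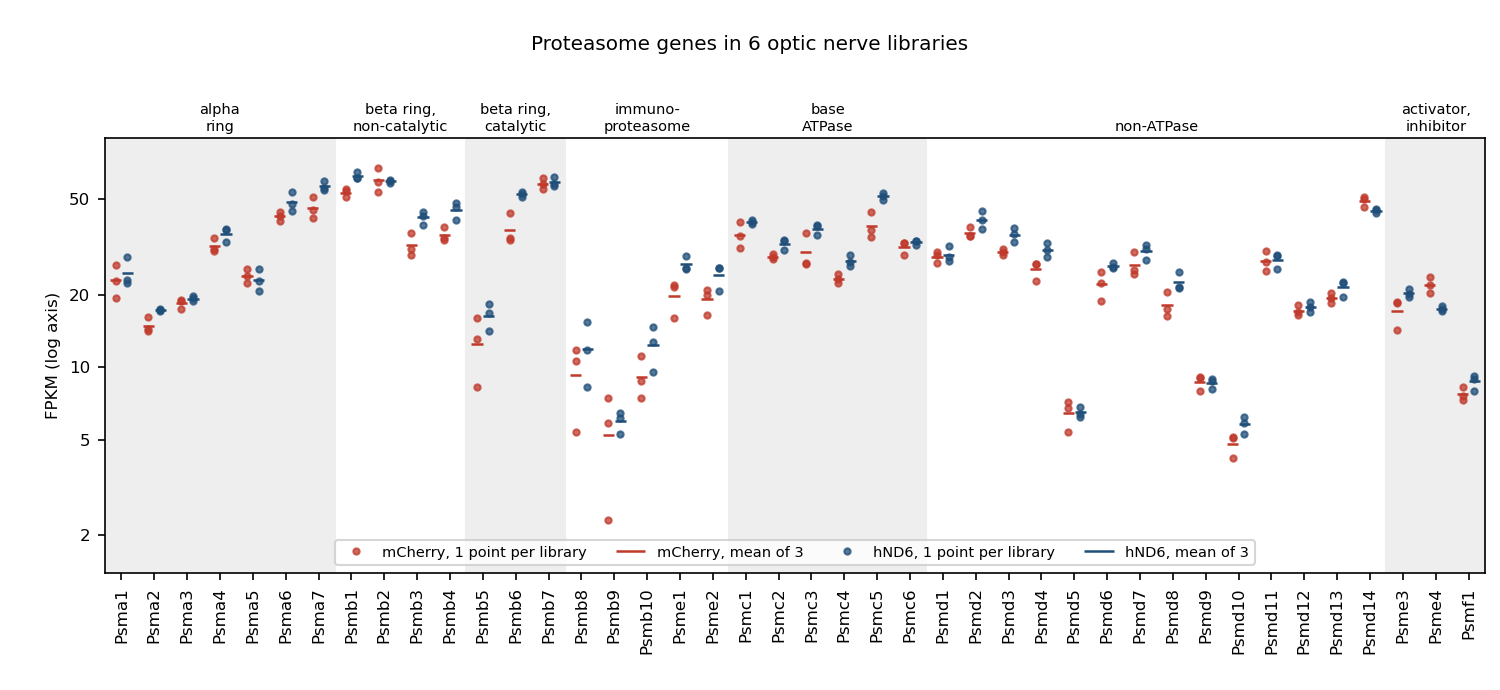
FPKM (log axis) of the 42 tested proteasome genes in 3 mCherry (red) and 3 hND6 (blue) libraries, 1 point per library with the group mean as a short line, ordered by class. The highest single point is Psmb2 in mCherry 1 (67.4 FPKM), and Psmb9, at 2.32 FPKM in mCherry 2, had the lowest point.

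Levels had a similar order in every library: the Spearman correlation of subunit FPKM between 2 libraries ran from 0.95 to 0.99 across the 42 genes, which are not independent replicates. Among the abundant members were Psmb2, a non-catalytic beta subunit with a mean of 59.8 FPKM, Psmb7, the trypsin-like active-site subunit, at 58.6 FPKM, and Psmb1, another non-catalytic beta subunit, with group means of 53.4 and 62.5 FPKM. Psma7 had the highest mean of the alpha genes, at 51.4 FPKM. Subunits that enter the 20S core in equal number did not have equal FPKM. Alpha ring genes spanned a 3.19-fold range from Psma2 (16.1 FPKM) to Psma7, and the catalytic genes a 4.05-fold range from Psmb5 (14.5 FPKM) to Psmb7. The alpha range rests on the exon length by which reads are divided, 2911 bases for Psma2 and 914 for Psma7. Their reads were 1248 and 1256 in mCherry 1, and 1733 and 1744 in hND6 1. Psmb5 and Psmb7, at 871 and 1160 exon bases, had 220 and 2036 reads in mCherry 1. Base ATPases were closer together, with a 1.77-fold range from Psmc4 (25.5 FPKM) to Psmc5 (45.1 FPKM). The non-ATPase genes ran from Psmd10 (5.30 FPKM), an assembly chaperone, to Psmd14 (47.1 FPKM), the deubiquitinase of the lid.

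Some of these levels may be affected by near-identical copies. Of the 46 members, 6 had another transcript of at least 97% identity over at least 50% of their length, among them Psmb5 (98.9% over 88.5%, the pseudogene Gm3375), Psma5, Psmb3 and Psmd11. Psme2 and Psme2b share 99.4%, and Psme2b is listed at 0 in all 6 libraries. Gm3375 and the Psmd11 copy A730017L22Rik also had a mean of 0 FPKM. Copies of Psma5 had means of 1.08 and 0.52 FPKM, and the Psmb3 copy Gm4950 had 0.37. The values of these 6 genes are therefore uncertain. Same-strand neighbours overlapped more than 5% of the gene span only for Psmd1 and Psmd13. Psmb11 had at most 2 reads in a library and Psma8 between 11 and 37, and neither was tested. Psmc3ip stood at 1.05 FPKM over the 6 libraries, with a log2 fold change of 0.091 ± 0.38 (SE).

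In the alpha ring, which docks the regulatory particle, 6 of 7 genes lay higher in hND6 (median 0.16 on the log2 scale). On the TPM scale 4 of 7 did. Without overlap 3 of 7 lay higher, where 12.6% of all tested genes did. Psma7 stood at 45.3, 41.8 and 51.3 FPKM in mCherry 1 to 3 and at 55.7, 54.8 and 59.6 FPKM in hND6 1 to 3. All 3 hND6 libraries were above all mCherry libraries, with a difference of 0.30 ± 0.10 in log2 (SE; limma adjusted p = 0.255). Psma2 had the second smallest p of the ring, at 14.1, 14.4 and 16.2 against 17.4, 17.1 and 17.5 FPKM, again without overlap (0.21 ± 0.083, adjusted p = 0.31). Psma6, the third gene without overlap, had a mean of 48.7 ± 4.63 FPKM in hND6 and 42.5 ± 1.89 in mCherry (SD, n = 3). Psma5 was the one gene below 0 (-0.055 ± 0.10, adjusted p = 0.827), with groups that overlapped, and Psma1, Psma3 and Psma4 had values between 0.061 and 0.16.

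Among the non-catalytic beta subunits, which complete the inner rings, Psmb1, Psmb3 and Psmb4 lay higher without overlap and Psmb2 had groups that overlapped. Of all tested genes 12.6% lay higher without overlap. Psmb3 stood at 29.3, 31.1 and 36.2 FPKM in mCherry and at 42.7, 39.2 and 44.3 FPKM in hND6. Its difference of 0.38 ± 0.10 in log2 (SE; limma adjusted p = 0.207) was the third largest of the constitutive core, and its upstream stretch with the interferon type match is among those shown above. Psmb4 stood at 34.7, 33.9 and 38.5 against 41.2, 46.3 and 48.3 FPKM, also with every hND6 library above every mCherry library (0.34 ± 0.093, adjusted p = 0.21). Psmb1 averaged 62.5 ± 2.05 FPKM in hND6 and 53.4 ± 2.05 in mCherry (SD, n = 3). Psmb2 stood at 67.4, 59.1 and 53.4 against 60.3, 59.7 and 58.6 FPKM, with all hND6 values inside the mCherry range (-0.0033 ± 0.10, adjusted p = 0.99).

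The 3 constitutive active-site genes differed among themselves. Psmb6, the caspase-like subunit (chromosome 11, 70525386 to 70527649 of the mm10 build), stood at 33.8, 34.5 and 44.0 FPKM in mCherry 1 to 3 and at 51.3, 53.8 and 52.9 FPKM in hND6 1 to 3. It had the largest log2 fold change of the 42 subunits, 0.50 ± 0.12 (SE; limma adjusted p = 0.179), and its groups did not overlap. Psmb5, the chymotrypsin-like subunit, stood at 8.32, 13.1 and 16.1 against 16.8, 14.2 and 18.3 FPKM. Its single low value was in mCherry 1 and its groups overlapped (0.42 ± 0.24, adjusted p = 0.453). Psmb7 stood at 57.8, 55.2 and 61.1 against 58.0, 62.2 and 57.0 FPKM, with groups that overlapped (0.025 ± 0.077, adjusted p = 0.899).

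**Figure D2:**
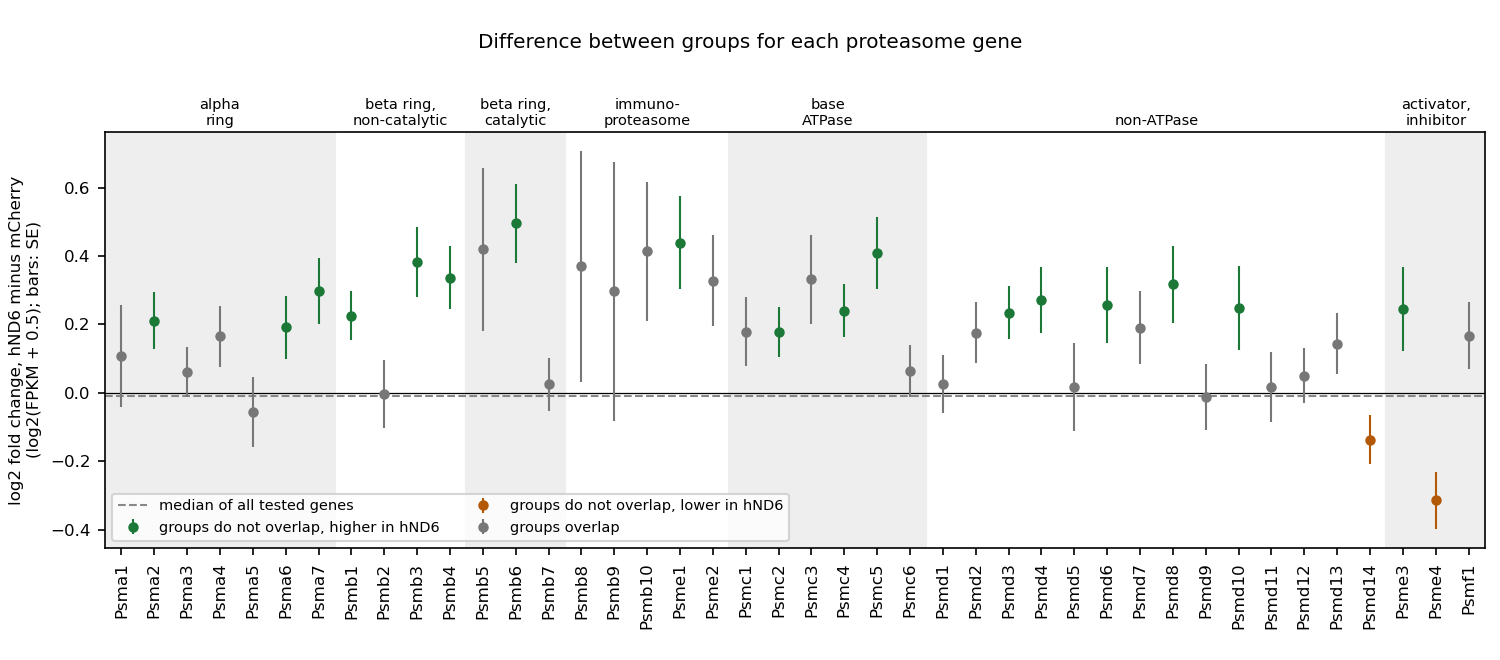
Log2 fold change (hND6 minus mCherry, on log2(FPKM + 0.5)) of each tested proteasome gene, with bars giving the SE from limma. Colour shows whether the 3 hND6 values lay wholly above the 3 mCherry values, wholly below them, or the groups overlapped. Most points lie between 0 and 0.50, while Psme4 (-0.31) and Psmd14 (-0.14) are the pair of genes that lay lower without overlap.

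In the base of the regulatory particle, where 6 ATPases form the unfolding ring, all 6 genes lay above 0 (median 0.21; on the TPM scale 5 of 6, with Psmc6 at -0.081). Psmc5 stood at 34.7, 37.2 and 44.4 FPKM in mCherry and at 51.4, 52.9 and 49.9 FPKM in hND6, without overlap (0.41 ± 0.11, SE; limma adjusted p = 0.2). Psmc4 stood at 22.4, 23.3 and 24.4 against 29.3, 26.4 and 27.3 FPKM, also without overlap (0.24 ± 0.077, adjusted p = 0.255). Psmc2 was the third ATPase gene without overlap, at 32.7 ± 1.74 against 28.9 ± 0.652 FPKM (SD, n = 3). Over all tested genes 12.6% lay higher without overlap. Psmc6 had the smallest difference of the ring (0.063 ± 0.076, adjusted p = 0.733), and Psmc1 and Psmc3 (0.18 and 0.33) had groups that overlapped through mCherry 3.

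Of the 14 Psmd genes 12 lay above 0 (median 0.16), and 8 of 14 did on the TPM scale. Without overlap 5 of the 14 lay higher (Psmd3, Psmd4, Psmd6, Psmd8 and Psmd10), where 12.6% of all tested genes did. Psmd3, a lid scaffold gene, stood at 30.1, 29.3 and 31.0 FPKM in mCherry and at 33.2, 35.8 and 37.8 FPKM in hND6 (0.23 ± 0.078, SE; limma adjusted p = 0.263). Psmd8, another lid gene, stood at 17.5, 16.4 and 20.5 against 21.6, 21.5 and 24.9 FPKM (0.32 ± 0.11, adjusted p = 0.279). Psmd4, which encodes a ubiquitin receptor, averaged 30.9 ± 2.02 against 25.6 ± 2.36 FPKM (SD, n = 3). In these 3 genes the lowest hND6 library was above the highest mCherry library. Psmd14, whose product cuts ubiquitin chains from substrates, went the other way, at 51.1, 46.6 and 50.3 against 45.5, 43.8 and 45.2 FPKM. Its 3 hND6 values lay below all mCherry values (-0.14 ± 0.071, adjusted p = 0.412). The large scaffold genes Psmd1 and Psmd2 had values of 0.026 and 0.18, and Psmd9, a base chaperone, had the largest p of the class (-0.013 ± 0.096, adjusted p = 0.961).

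Alternative caps and the inhibitor did not share 1 direction. Psme4, the gene of the PA200 activator (chromosome 11, 30771726 to 30880361), stood at 21.9, 23.8 and 20.3 FPKM in mCherry and at 18.03, 17.5 and 17.2 FPKM in hND6. All 3 hND6 libraries were below all mCherry libraries, and the log2 difference of -0.31 ± 0.084 (SE; limma adjusted p = 0.205) was the lowest of the 42. Psme3, the nuclear PA28 gamma activator, stood at 18.6, 14.3 and 18.8 against 21.2, 20.2 and 19.7 FPKM, higher without overlap (0.25 ± 0.12, adjusted p = 0.394). Psmf1, the gene of the inhibitor PI31, had groups that overlapped (0.17 ± 0.10, adjusted p = 0.47).

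The order of these differences followed the length of the genes on the chromosome. Across the 42 subunits fold change and gene span had a Spearman correlation of -0.88, and across 13678 tested protein-coding genes it was -0.54; genes share their libraries and are not independent. All 18 subunits under 10 kb lay higher (median 0.31; all protein-coding genes of that span 0.20), as did 16 of 18 between 10 and 30 kb (median 0.17, against 0.03). Of the 6 subunits over 30 kb (Psmb2, Psmb7, Psmd1, Psmd11, Psmd14 and Psme4) 3 lay higher and 3 lower (median 0.0068, against -0.13), and on the TPM scale all 6 lay below 0. Among all tested protein-coding genes, 2641 of 3402 under 10 kb lay higher (946 without overlap). So did 2489 of 4419 between 10 and 30 kb (646 without overlap) and 1482 of 5857 over 30 kb (164 without overlap). After the trend with span was taken out of each library, 39 of 42 subunits lay above 0 (median 0.15; all genes 0.0042) and 5 had an unadjusted p under 0.05, where 10.1% of all genes did. Psmb6 then stood at 0.27, Psmc5 at 0.30 and Psme4 at -0.15 on the log2 scale. What the relation with span comes from was not tested.

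**Figure D3:**
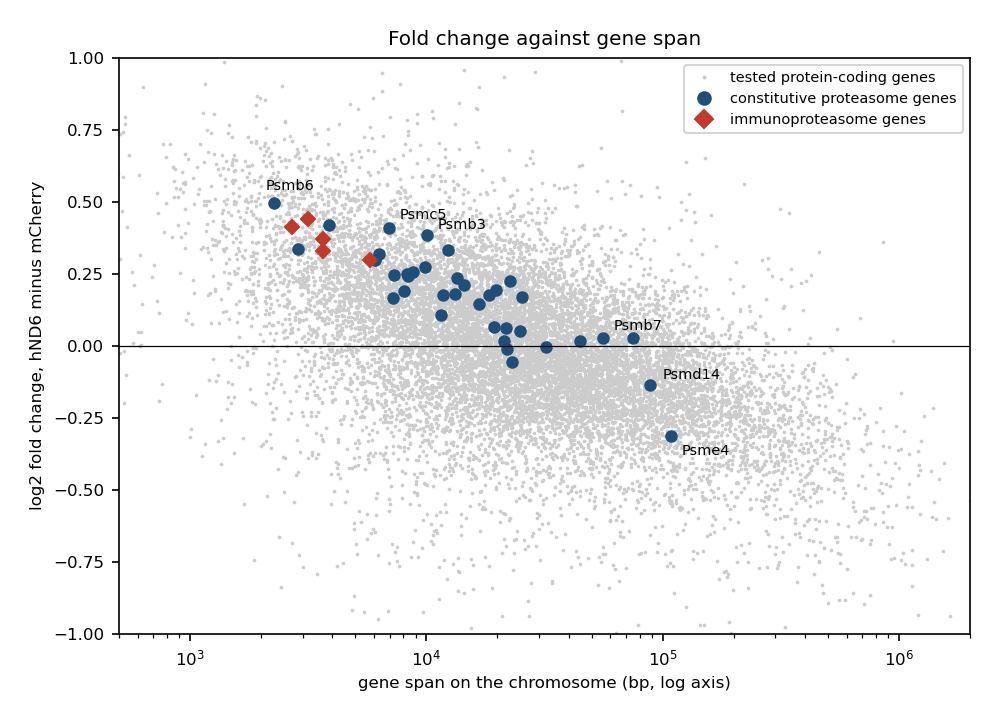
Log2 fold change (hND6 minus mCherry) against gene span in base pairs (log axis) for tested protein-coding genes (grey), constitutive proteasome genes (blue circles) and immunoproteasome genes (red diamonds), with the vertical axis ending at -1 and 1. Proteasome genes run from Psmb6 at 0.50 with a span of 2264 bp to Psme4 at -0.31 with a span of 108636 bp.

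The 5 immunoproteasome genes all lay higher on average in hND6 (median log2 fold change 0.37, range 0.30 to 0.44), and none passed. Psme1 alone had groups that did not overlap, where 12.6% of all tested genes lay higher without overlap. The constitutive median was 0.18, and it was 0.27 over the 13 constitutive genes under 10 kb, the span class that holds all 5 immunoproteasome genes. With the gene span trend removed the immunoproteasome median was 0.19 and the constitutive median 0.14 (0.17 over the 13 under 10 kb). On the TPM scale they were 0.23 and 0.035 (0.13 over the 13 under 10 kb). Without mCherry 2 the immunoproteasome median was 0.23.

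Psmb8, the inducible chymotrypsin-like subunit (chromosome 17, 34197790 to 34201454, in the MHC region), stood at 11.8, 5.37 and 10.7 FPKM in mCherry 1 to 3 and at 8.32, 11.8 and 15.5 FPKM in hND6 1 to 3. The groups overlapped widely, with the low value in mCherry 2 (0.37 ± 0.34, SE; limma adjusted p = 0.645). Psmb9, the inducible caspase-like subunit beside Psmb8 (chromosome 17, 34181988 to 34187764), stood at 7.49, 2.32 and 5.90 against 5.30, 6.14 and 6.44 FPKM. Its highest and its lowest values were both in mCherry (0.30 ± 0.38, adjusted p = 0.746), and without mCherry 2 the difference was -0.15 for Psmb9 and 0.037 for Psmb8. Psmb10, the inducible trypsin-like subunit, stood at 8.80, 7.46 and 11.2 against 9.56, 12.8 and 14.7 FPKM, with only the top pair of hND6 libraries above all mCherry values (0.41 ± 0.20, adjusted p = 0.389; 0.28 without mCherry 2).

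The PA28 activator genes, which lie close together on chromosome 14, varied less. Psme1 (55578360 to 55581528) stood at 22.0, 16.03 and 21.6 FPKM in mCherry and at 25.8, 25.9 and 29.0 FPKM in hND6, without overlap (0.44 ± 0.14, SE; limma adjusted p = 0.249). Psme2 (55587441 to 55591087) stood at 20.0001, 16.6 and 20.9 against 20.7, 26.0 and 25.8 FPKM, and hND6 1 lay just below mCherry 3 (0.33 ± 0.13, adjusted p = 0.317). At means of 23.4 and 21.7 FPKM they were more abundant per length than Psmb8, Psmb9 and Psmb10.

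**Figure D4:**
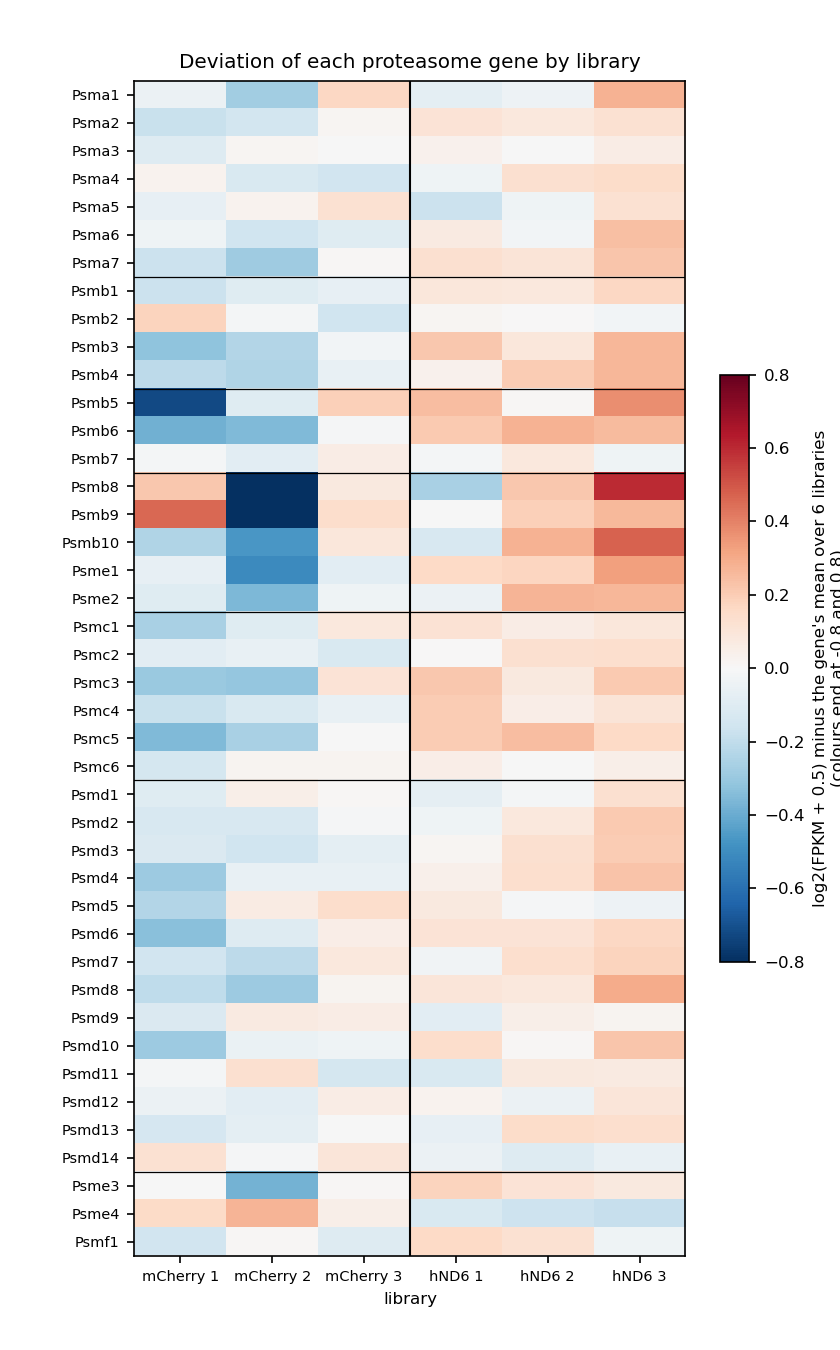
Deviation of each proteasome gene's log2(FPKM + 0.5) in each library from that gene's mean over the 6 libraries, red above and blue below, with colours ending at -0.8 and 0.8 and horizontal lines between classes. The block of immunoproteasome genes is darkest blue in mCherry 2, where its median deviation is -0.51, while constitutive genes there have a median deviation of -0.10.

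Single libraries carried much of the immunoproteasome spread. All 5 genes had their lowest value in mCherry 2, as did 12 of 37 constitutive subunits and 17.8% of all tested genes, and all 5 had hND6 1 as the lowest of the hND6 libraries, as did 14 of 37 and 39.3%. Of 20 tested genes of a list of interferon-gamma signalling and peptide loading, 13 were also lowest in mCherry 2 and 18 had hND6 1 as the lowest hND6 library. The lowest value was in mCherry 1 for 18 of 37 constitutive and 0 of 5 immunoproteasome genes, against 17.5% of all tested genes. The highest was in hND6 3 for 21 of 37 and 3 of 5, against 17.1%.

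Whether immunoproteasome genes replaced their constitutive partners was asked of the 3 exchange pairs, as ratios of FPKM within a library. The ratio of Psmb8 to Psmb5 was 1.42, 0.41 and 0.661 in mCherry 1 to 3 and 0.496, 0.833 and 0.846 in hND6 1 to 3. The mCherry values enclosed all hND6 values, and the mean log2 difference was -0.05 (exact two-sided permutation p = 1, n = 3 each). It was 0.41 without mCherry 1, the library with the low Psmb5 value (220 reads), and 0.19 without hND6 1. Psmb5 is among the genes with a near-identical copy, so this ratio is uncertain. The ratio of Psmb9 to Psmb6 was 0.221, 0.0673 and 0.134 against 0.103, 0.114 and 0.122, again within the mCherry range (log2 difference -0.20, exact permutation p = 0.7; -0.59 without mCherry 2 and 0.17 without mCherry 1).

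The ratio of Psmb10 to Psmb7 was 0.152, 0.135 and 0.183 in mCherry and 0.165, 0.206 and 0.259 in hND6. It lay higher in hND6 on average, with hND6 1 below mCherry 3 (log2 difference 0.39, exact two-sided permutation p = 0.2, n = 3 each, adjusted over the 3 pairs 0.6, and 1 for each of the other pairs). With the gene span trend removed the difference was 0.07; Psmb10 spans 2706 bp and Psmb7 56052 bp. The smallest p that 3 against 3 libraries allow is 0.1, so no pair could pass.

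**Figure D5:**
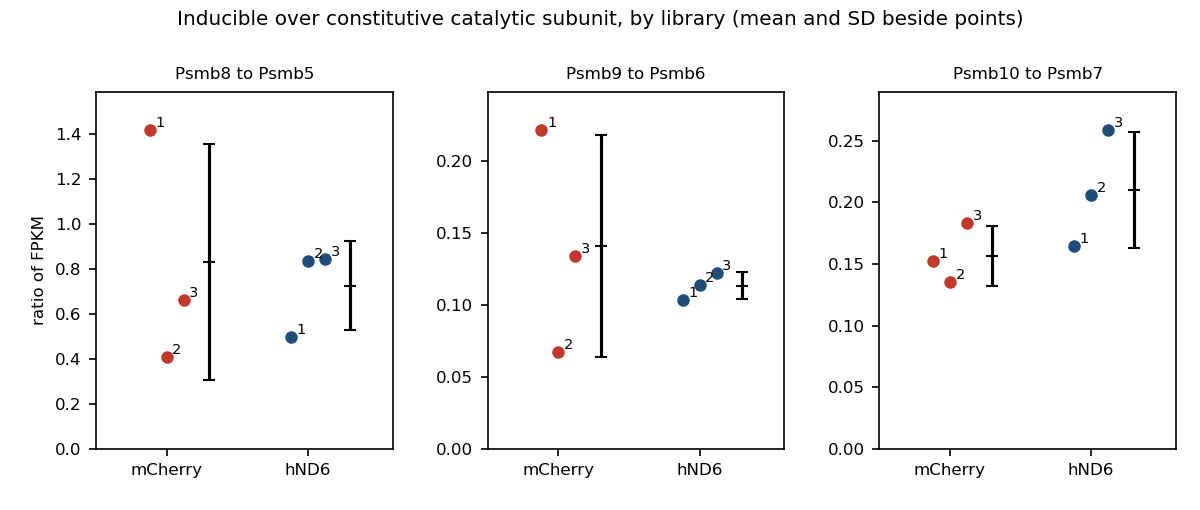
Ratio of FPKM of each inducible catalytic gene to its constitutive partner, 1 point per library with the library number beside it, and the group mean with its SD as a bar at the right of each group. In the first 2 panels the hND6 points lie inside the mCherry range, and in the third hND6 2 and 3 lie above it.

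Other genes around the proteasome differed from list to list, and none passed over all genes. Of the assembly chaperones 7 were tested, 5 of them above 0 (median 0.09). Pomp, which helps the core close, stood at 8.94, 8.26 and 10.3 FPKM in mCherry and at 11.5, 12.8 and 12.5 FPKM in hND6 (0.40 ± 0.11, SE; limma adjusted p = 0.202), and Psmd10 had a value of 0.25 (adjusted p = 0.389). Both had all hND6 libraries above all mCherry libraries. Of 11 other proteasome-bound proteins 5 lay higher and 6 lower (median -0.01), and the pair of smallest p lay lower without overlap. These were Ube3c, a ubiquitin ligase (-0.20, adjusted p = 0.279), and AI314180, listed under the older symbol of the Ecm29 gene (-0.15, adjusted p = 0.381). They span 106851 and 113839 bp, in the class over 30 kb in which most protein-coding genes lay lower.

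Ubiquitin genes had the larger differences, with 4 of 5 tested genes above 0 and without overlap (median 0.37). Of all tested genes 12.6% lay higher without overlap. Rps27a, which encodes a ubiquitin fused to a ribosomal protein, stood at 65.4, 58.3 and 78.2 FPKM in mCherry and at 99.3, 113 and 116 FPKM in hND6 (0.71 ± 0.13, SE; limma adjusted p = 0.155). Ubb, a polyubiquitin gene, stood at 92.4, 101 and 122 against 159, 179 and 152 FPKM (0.64 ± 0.13, adjusted p = 0.158). In both genes the lowest hND6 library was above the highest mCherry library. Without mCherry 3 both had an adjusted p under the threshold (0.0446 and 0.0499), where 0.817% of all genes did. With hND6 1 left out as well neither did (0.0905 and 0.0933).

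Of 10 shuttle factors and unfoldase genes 6 lay higher (median 0.04). Vcp, the unfoldase, averaged 62.3 ± 3.24 against 52.7 ± 2.46 FPKM (SD, n = 3). Among 9 genes that control proteasome transcription, 5 lay higher (median 0.03), with Keap1 at 0.21 (limma adjusted p = 0.279) and Nfe2l1, the factor that raises proteasome genes when the protease is blocked, at 0.18 with overlapping groups (adjusted p = 0.394). The constitutive genes with an antioxidant type match shown above had unlike values: 0.50 for Psmb6, 0.42 for Psmb5, 0.063 for Psmc6, 0.051 for Psmd12 and -0.013 for Psmd9. Of 10 cytosolic proteases outside the proteasome 5 lay higher and 5 lower (median 0.04), with Capns1, the small calpain subunit, at 0.33 and Tpp2, a peptidase that trims long peptides, at -0.31, both without overlap. Capns1 spans 11870 bp and Tpp2 68965 bp.

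The list of interferon-gamma signalling and peptide loading had 15 of 20 tested genes above 0 (median 0.18). Irf2, a factor that competes with Irf1 on shared sites, stood at 53.7, 57.0 and 50.5 FPKM in mCherry and at 41.5, 42.6 and 43.2 FPKM in hND6, lower without overlap (-0.33 ± 0.075, SE; limma adjusted p = 0.178). Irf2 spans 107727 bp, and of the 5857 tested protein-coding genes over 30 kb 4375 lay lower, 1093 of them without overlap. Calr, a chaperone of class I loading, lay higher without overlap (0.37, adjusted p = 0.327). Irf1, which carries part of the interferon signal, had overlapping groups at 0.052. Tap1, whose gene lies beside Psmb9, stood at 10.2, 4.66 and 8.16 against 5.75, 10.9 and 9.75 FPKM, with the low value again in mCherry 2. Irf8 and Igtp are listed at 0 in all 6 libraries and were not read.

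Markers of immune cells, which carry much immunoproteasome RNA, also differed between libraries. The 10 microglia genes all lay higher in hND6, 4 of them without overlap, where 12.6% of all tested genes lay higher without overlap. They summed to 744, 406 and 411 FPKM in mCherry 1 to 3 and to 602, 672 and 793 FPKM in hND6 1 to 3. The sums of mCherry 2 and mCherry 3 were thus close, and that of mCherry 1 lay above hND6 1 and 2. The median deviation of the immunoproteasome genes was -0.51 in mCherry 2 and 0.077 in mCherry 3. The 10 B and plasma cell genes summed to between 8.74 and 18.3 FPKM in mCherry and between 55.4 and 165 FPKM in hND6; 6 were tested and all 6 lay higher, and 2 passed. The 10 dendritic cell and macrophage genes summed to between 77.5 and 109 against between 101 and 118 FPKM (7 of 9 tested higher), and the 12 T and NK cell genes to between 8.91 and 21.3 against between 9.51 and 14.0 FPKM, with 11 of 12 under 1 FPKM. No marker of these 4 lists was at 0 in all libraries. The part of these cells in the immunoproteasome values was not tested.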

How the data were processed

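Ribosomal-RNA-depleted, stranded total RNA libraries of optic nerve (3 mCherry, 3 hND6, grouped by title) were deposited as FPKM, the authors' normalisation, per the labels. Tools listed, without roles, in the submitters' processing notes were HTSeq, STAR, Trim Galore and CASAVA 1.4, with builds mm10 and GRCm38. The sources used here do not give the counting mode. Single-library and combined tables differed in 0 values. Multiplied by exon length, at least 99.99% of the values above 0 came out as whole reads (within 0.1 read), which gave the depth.

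Genes whose mean reached 0.5 FPKM were tested on log2(FPKM + 0.5), a scale that understates changes of low genes, with limma 3.58.1 (R 4.3.3; moderated test with intensity trend), Benjamini-Hochberg adjustment over all 16157 genes and a threshold of 0.05. Fits were tested on simulated data. Pair ratios had exact permutation tests over libraries.

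Members, gene lists and settings were chosen with earlier results of these data known. Named with full statistics were catalytic, inducible, activator and inhibitor genes, in each other class the 2 members of smallest and the 1 of largest p, and from each pathway list the 2 of smallest p; other members are given by value. Some genes of these lists are not reported here. Genes named beyond this were chosen after their values were seen. Alternatives were other pseudocounts (0.1, 1), no filter or 1 FPKM, TPM scale, median-of-ratios, quantile, no trend, robust, library weights, replicate block, voom, span trend removed (loess) and libraries left out. Leaving out mCherry 3 with hND6 2 was chosen after seeing the data.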

Additional observations from a re-analysis of the deposited data

How the results depend on the processing

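The number of all genes with an adjusted p under 0.05 in limma was 7; it was 1 with no filter, 0 with the replicate block, 0 with voom, between 0 and 131 when single libraries were left out (0 without mCherry 2, 1 without mCherry 1, 2 without hND6 1, 3 without hND6 2, 131 without mCherry 3), 1 without mCherry 3 and hND6 1, and 0 without mCherry 3 and hND6 2. The number of proteasome members called was 0 in every setting but 1, and ran from 0 to 1 when single libraries were left out. The constitutive median of 0.18 was 0.035 on the TPM scale and 0.25 without mCherry 3 and either hND6 1 or hND6 2, and ran from 0.15 to 0.22 when single libraries were left out. The immunoproteasome median stayed above 0 throughout (0.19 to 0.54).

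Some directions changed. On the TPM scale Psmb7 stood at -0.12 and Psmc6 at -0.081. With quantile normalisation Psmb7 stood at -0.034 and Psmd9 at 0.0041, and with library weights Psmd9 at 0.016. With the span trend removed Psmb2 stood at 0.041 and AI314180 at 0.013. With single libraries left out Psmb2 ran from -0.083 to 0.084, Psmb7 from -0.012 to 0.062, Psmd9 from -0.072 to 0.027, Psma5 from -0.13 to 0.016 and Psmb9 from -0.15 to 0.60. Without mCherry 3 and hND6 1, Psma5 stood at 0.062 and Psmd9 at 0.053. The pair ratio of Psmb8 to Psmb5 ran from -0.44 to 0.41 and that of Psmb9 to Psmb6 from -0.59 to 0.17 when single libraries were left out, and the first was 0.12 without mCherry 3 and hND6 1. The cause of these changes was not tested.

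Replicate numbers did not pair the libraries: deviations of same-numbered libraries correlated at -0.42, 0.36 and -0.20. With the replicate number as a block 0 of 42 subunits passed in limma (12 at an unadjusted p under 0.05, against 11.1% of all genes). The pair ratios (-0.05, -0.20 and 0.39) are the same with the block by construction. Depth limits Psmb9 most, at 104 reads in mCherry 2.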
